A study of Homo sapiens with 18 samples.

Results

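Aminoacyl-tRNA synthetases are the enzymes that attach each amino acid to its tRNA, and a separate set of nuclear genes encodes most of the enzymes that do this inside mitochondria. In control ARPE-19 cells H2O2 raised the mRNA of 10 of the 20 cytosolic synthetase genes and of 1 of the 16 mitochondrial ones, and in NRF2-edited cells it raised 11 and 1. Over all genes tested 2.96% and 4.26% were called as risen. The thiol compound NACET raised 1 cytosolic gene in control cells and none in NRF2-edited cells by the same test. Of all genes 2.75% and 1.39% were called, up or down, and in control cells 1.39% were called as risen. But with replicates paired the test for NACET called 1 and 4 cytosolic genes and MARS2 in each line. With that pairing 7.49% and 8.82% of all genes were called. Without pairing, the 1 call in control cells was lost whichever library was dropped. By the test without pairing 9 and 11 cytosolic genes were lower with NACET than with H2O2, against 1.43% and 3.22% of all genes. The genes were taken by symbol from a named list and not by a measured value, but with earlier results of these data known. The list held the 20 cytosolic genes and 16 mitochondrial genes, whose symbols end in 2, and it is not every synthetase gene. They were 36 of 23411 gene rows, and all 36 passed the filter on low counts in every comparison.

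The samples were ARPE-19 cells, a human cell line derived from retinal pigment epithelium, sequenced as polyadenylated RNA in 18 libraries, 3 in each of 6 groups. Control cells had received a lentivirus that carries Cas9 without a guide RNA. NRF2-edited cells were 1 clone (C1) that had received Cas9 with a guide against exon 5 of NFE2L2, the gene of the transcription factor NRF2, and carried a stop codon in both alleles. Each cell line was untreated (water), exposed to 0.2 mM H2O2, or exposed to 1 mM NACET (N-acetyl-L-cysteine ethyl ester, a cell-permeable precursor of cysteine). The sample labels give the exposure as 2 h after 22 h in medium with 1% serum. The series description gives 8 h after 40 h in medium with 10% serum but also names 1% serum. The study's text gives 8 h after 40 h, and it states 10% serum for every experiment that followed its first transcriptome. The conflict was not resolved here. Nothing in the labels says that replicates came from separate cultures, so p-values measure only the spread between these samples, which may be technical.

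Libraries held 16673306 to 25951154 reads on genes, and no library stood apart in depth or in its normalization factor (0.968 to 1.034). NQO1, a classical NRF2 target, stood at 228 ± 92.9 in untreated control cells, in CPM, normalized read counts scaled to a common library size (mean ± SD, n = 3), against 14.0 ± 2.35 in the untreated edited clone. NFE2L2 itself was at 124 ± 2.44 and 126 ± 1.89 CPM, so the level of its mRNA did not mark the edit. The pigment epithelium genes RPE65, RLBP1, TYR, DCT and TTR were under 1 CPM in every library, whereas MITF ranged from 64.9 to 187 CPM and OTX2 from 105 to 180. The summed level of the 13 pigment epithelium markers was 323 to 353 CPM in untreated control cells, 260 to 286 with H2O2 and 246 to 263 with NACET. In NRF2-edited cells it was 288 to 351, 201 to 255 and 211 to 228 CPM. The sum of the 3 epithelial markers was also lower with H2O2, at 710 to 759 CPM against 1027 to 1054 untreated in control cells and at 723 to 881 against 1003 to 1145 in NRF2-edited cells. That of the 6 fibroblast markers, mostly VIM, was 4525 to 5654 against 6087 to 7158 CPM and 5207 to 6381 against 6705 to 7119 CPM. All 3 endothelial markers, 2 of 3 blood markers and 4 of 5 neuron or photoreceptor markers were under 1 CPM throughout. The neuron or photoreceptor sum, nearly all TUBB3, ranged over 78.7 to 103 CPM in untreated control cells against 48.0 to 57.0 after H2O2. In the edited clone these ranges were 139 to 228 and 106 to 134 CPM. The part of these shifts in the results was not tested. Each sample was a culture of a single cell line and not a mixture of cell types. In bulk RNA fewer cells with a marker and less of its RNA per cell cannot be told apart.

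Cytosolic synthetases charge the tRNAs that ribosomes of the cytoplasm use. Several of them are held together in a multisynthetase complex, and the others work outside it. GARS and KARS are exceptions, since each gene encodes both the cytosolic and the mitochondrial enzyme, and QARS is one in another sense, since mitochondria make Gln-tRNA by another route. When amino acids run short, uncharged tRNA activates the kinase GCN2, which phosphorylates the initiation factor eIF2. General translation then slows while translation of the transcription factor ATF4 rises. ATF4 is known to induce genes of amino acid transport, amino acid synthesis and tRNA charging, through C/EBP-ATF response elements near their start sites.

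In untreated control cells the cytosolic genes were expressed at a higher level than the mitochondrial ones, with a median of 63.5 CPM per kb of coding sequence against 19.5. NARS, which charges tRNA with asparagine, was highest at 146 ± 11.4 CPM per kb. FARSB, a subunit of the phenylalanine enzyme, was the lowest cytosolic gene at 34.5 ± 6.65. Among the mitochondrial genes IARS2 was highest at 63.7 ± 4.93 CPM per kb, within the cytosolic range, and MARS2 was lowest at 4.92 ± 0.624. PARS2, at 5.27 ± 0.792, did not differ from MARS2 beyond the spread of replicates. The order depends on the length used. With the canonical transcript in place of the coding sequence, KARS came first at 90.7 CPM per kb and FARSB fell to 9.01, below several mitochondrial genes.

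Untreated NRF2-edited cells did not differ from untreated control cells in any of the 36 genes by the edgeR quasi-likelihood test, in which a call needed an adjusted p below 0.05 together with a log2 fold change of 0.6 or more, up or down. Over all genes 3.85% were called in that comparison. Only 1 member had an unadjusted p below 0.05, against 13.7% of all genes, and DESeq2 also called none. The widest gap was in NARS2, the mitochondrial asparagine enzyme, at 28.1, 29.6 and 30.2 CPM in control replicates and at 21.5, 23.0 and 25.5 in NRF2-edited ones. Its groups did not overlap, but the log2 difference of −0.33 ± 0.11 (SE) had an edgeR adjusted p of 0.219.

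H2O2 raised mainly cytosolic members in control cells. Of all genes tested 6.33% were called and 2.96% were called as risen, against 10 of 20 cytosolic and 1 of 16 mitochondrial members, all of them risen. The median log2 fold change was 0.61 over the cytosolic genes, 0.08 over the mitochondrial genes and −0.0038 over all genes tested. GARS, the glycine enzyme, changed most. It was at 117, 156 and 143 CPM in untreated replicates 1 to 3 and at 398, 539 and 462 CPM with H2O2. Each treated library stood above each untreated one by a wide margin, and the log2 fold change was 1.75 ± 0.15 (SE, n = 3 against 3, edgeR adjusted p = 0.000999).

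YARS, the tyrosine enzyme, went from 97.4, 115 and 116 CPM to 263, 326 and 287 CPM (log2 fold change 1.41 ± 0.11, edgeR adjusted p = 0.000954). WARS, the tryptophan enzyme, went from 78.2, 110 and 86.7 CPM to 203, 284 and 232 CPM (1.39 ± 0.16, edgeR adjusted p = 0.00283). The groups were apart in both, with replicate 2 the highest of the treated libraries. MARS, which charges tRNA with methionine, the residue that starts proteins, was at 97.6, 110 and 102 CPM untreated and at 244, 304 and 258 CPM with H2O2 (1.39 ± 0.11, edgeR adjusted p = 0.000954). SARS, the serine enzyme, was at 156, 176 and 173 CPM and then at 320, 412 and 405 CPM (1.17 ± 0.12, edgeR adjusted p = 0.00189). TARS, the threonine enzyme, followed with a log2 fold change of 1.08 ± 0.11 (edgeR adjusted p = 0.00202). IARS, AARS, NARS and EPRS, the enzymes for isoleucine, alanine, asparagine, and glutamate with proline, were called as well, with log2 fold changes of 1.04, 1.02, 0.91 and 0.73.

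**Figure D1:**
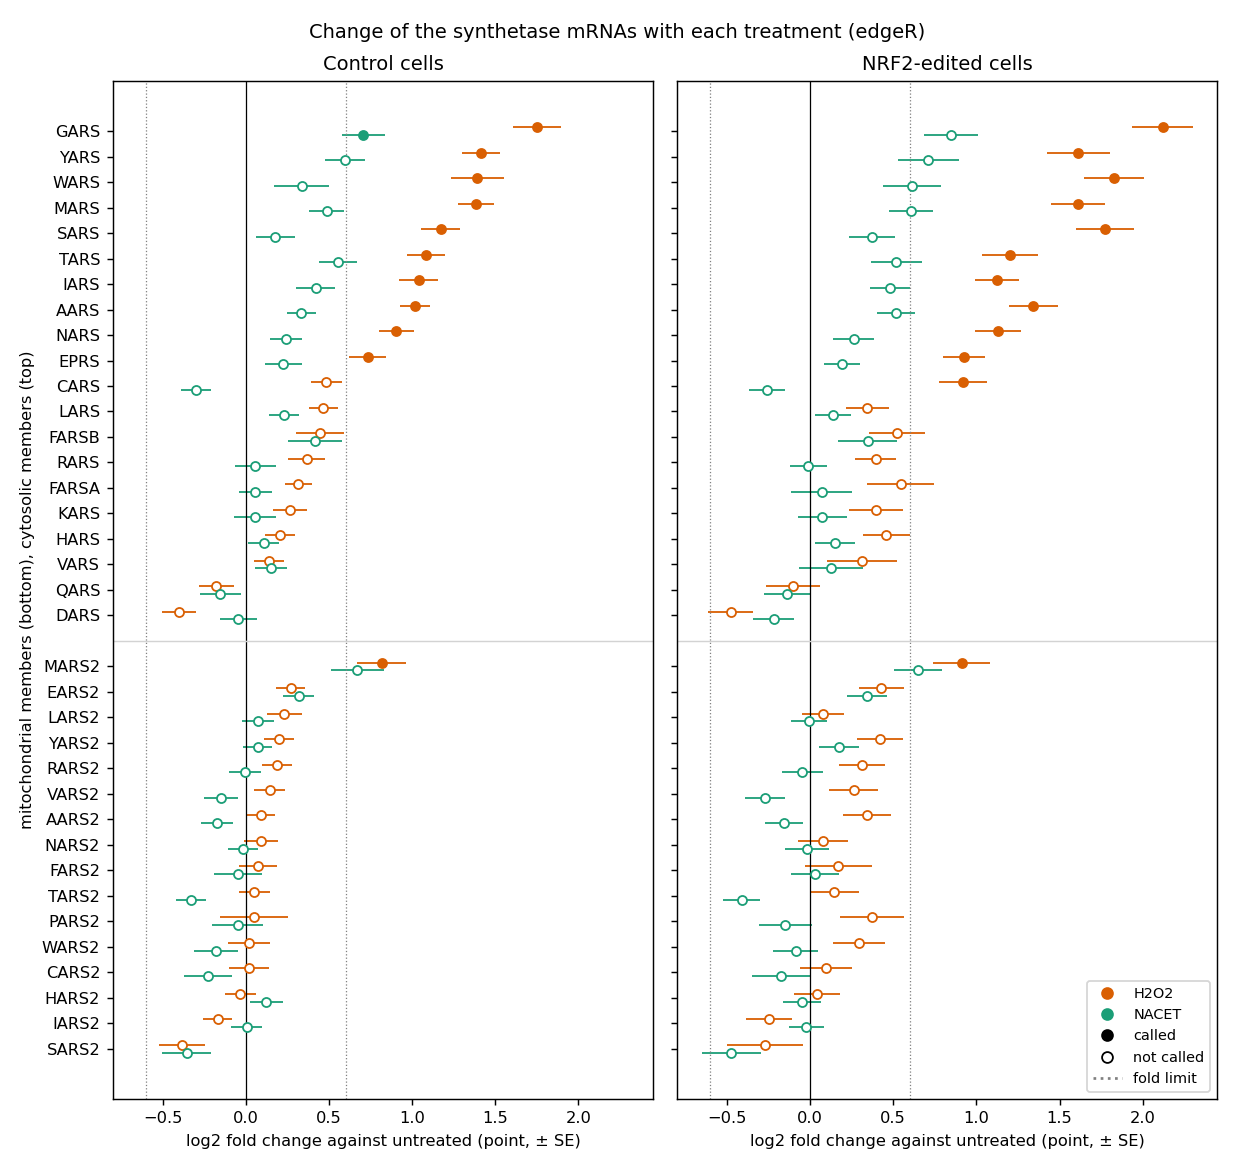
Log2 fold change (x axis, point with SE) against untreated cells of the same line for each of the 36 genes (y axis, ordered by the H2O2 change in control cells, cytosolic above mitochondrial), in control cells (left) and NRF2-edited cells (right). Filled points passed the test; with H2O2 these are 10 cytosolic genes and MARS2 on the left and 11 and MARS2 on the right, and with NACET GARS on the left alone.

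The other 10 cytosolic genes were spread from a modest rise to a fall. CARS and LARS were at log2 fold changes of 0.48 and 0.47 and FARSA at 0.32, each with an edgeR adjusted p below 0.05 but under the fold limit. FARSB (0.45), RARS (0.37), KARS (0.27), HARS (0.21) and VARS (0.14) were above 0 without passing the adjusted p. KARS, the lysine enzyme, serves both compartments as GARS does, and went from 161, 181 and 200 CPM to 203, 220 and 227 CPM. QARS, the glutamine enzyme, was at 204, 203 and 238 CPM untreated and at 176, 183 and 211 CPM with H2O2, so its groups overlapped (log2 fold change −0.18 ± 0.11, edgeR adjusted p = 0.300).

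DARS, the aspartate enzyme, went the other way, and it is named because its values stood out. It was at 178, 226 and 202 CPM untreated and at 151, 157 and 150 CPM with H2O2, with each treated library below each untreated one. The log2 fold change of −0.40 ± 0.10 had an edgeR adjusted p of 0.0388 but was smaller than the fold limit. DARS had the second-highest level per kb of coding sequence in untreated control cells, at 134 ± 16.1 CPM per kb, and came 11th with H2O2.

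**Figure D2:**
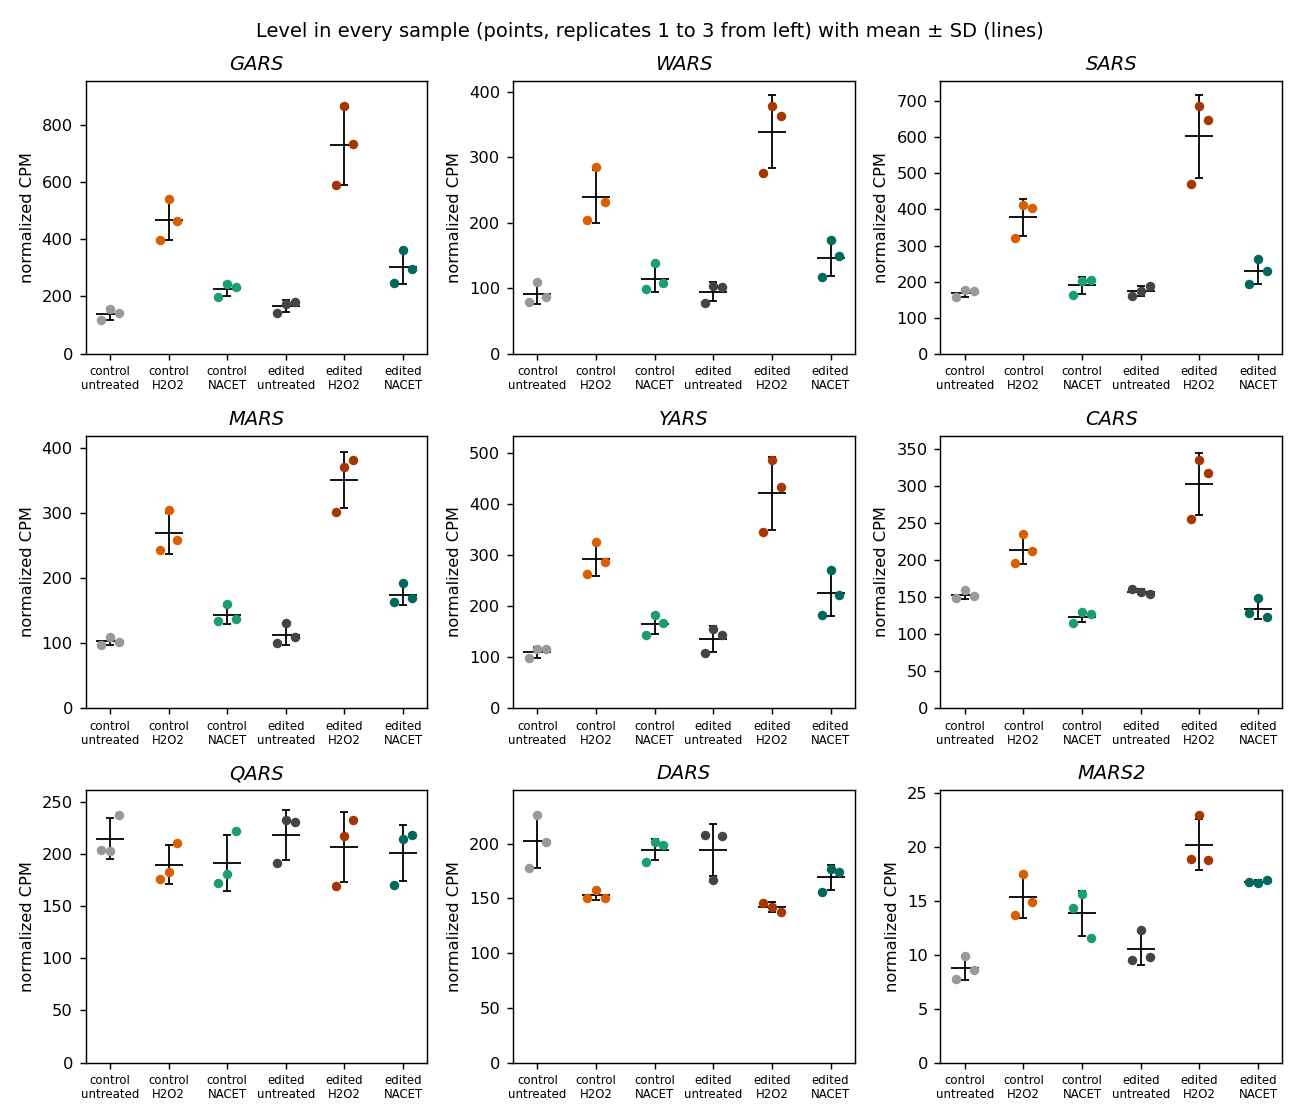
Normalized CPM (y axis, from 0) of 9 members in each of the 18 samples (points) with the mean ± SD of each group of 3 (lines), groups on the x axis. GARS, WARS, SARS, MARS and YARS are highest in both H2O2 groups, CARS is lowest with NACET, QARS overlaps throughout, and DARS is lowest with H2O2.

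Among the mitochondrial genes MARS2, which loads the mitochondrial methionine tRNA, was the exception. It was at 7.74, 9.93 and 8.57 CPM in untreated control cells and at 13.7, 17.5 and 14.9 CPM with H2O2 (log2 fold change 0.82 ± 0.15, edgeR adjusted p = 0.0128). The groups did not overlap, but without H2O2 replicate 2 the gene was no longer called. The other 15 mitochondrial genes had log2 fold changes from −0.38 (SARS2) to 0.27 (EARS2), and none of these passed an adjusted p of 0.05. By position of the samples rather than by the test, 17 cytosolic genes had every H2O2 library above every untreated one and 1 had every one below. Of the mitochondrial genes 4 lay wholly above and 2 wholly below. Over all genes tested 18% lay wholly above and 17% wholly below, so the mitochondrial counts were near the background.

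The genes that rose are scattered over the genome. By the GENCODE annotation on hg19, GARS lies at chr7:30620149-30673649 on the plus strand, YARS at chr1:33240838-33283632 on the minus strand and WARS at chr14:100800127-100843142 on the minus strand. MARS lies at chr12:57869228-57911352 and SARS at chr1:109756540-109780804, both on the plus strand. Reads were counted without regard to strand, so reads from an overlapping gene cannot be told apart. Another annotated gene covers 48.2% of the exon bases of SARS2, 63.0% of those of VARS2 and 18.1% of those of YARS2, and the values of these genes are uncertain for that reason. For WARS and MARS the covered share was 10.6% and 12.4%, and for GARS 1.80%.

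Promoters from RefSeq (GRCh38.p14, 250 bases before to 50 after the annotated start) were found for 30 of the 36 genes, and they were searched on both strands for TGATGNAA, the core of the C/EBP-ATF response element that ATF4 dimers are known to bind. The core was found in 7 of 16 cytosolic genes with a promoter and in 1 of 14 mitochondrial ones, against 4.46% of all genes in the table and 3.60% of its protein-coding genes. Of the 10 genes with a promoter that were called with H2O2 in control cells 6 held it, and of the 20 that were not called 2 did, CARS and YARS2. The match and its surroundings are shown for each gene so that the cores can be compared, 30 bases each, read 5′ to 3′ along the gene, with the core in capitals.
GARS, chr7:30594834-30594863, plus strand: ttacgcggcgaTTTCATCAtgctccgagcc
MARS, chr12:57488053-57488082, plus strand: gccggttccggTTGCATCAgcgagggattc
TARS, chr5:33440956-33440985, plus strand: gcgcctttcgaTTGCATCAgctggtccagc
IARS, chr9:92293692-92293721, minus strand: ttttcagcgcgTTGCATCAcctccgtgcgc
AARS, chr16:70289675-70289704, minus strand: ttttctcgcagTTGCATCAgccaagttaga
NARS, chr18:57621804-57621833, minus strand: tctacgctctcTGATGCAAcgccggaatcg
CARS, chr11:3057407-3057436, minus strand: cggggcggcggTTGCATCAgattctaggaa
YARS2, chr12:32756076-32756105, minus strand: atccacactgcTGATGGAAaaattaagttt

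MARS, TARS, IARS, AARS and CARS carried the same 8 letters in the same direction, and NARS carried them on the opposite strand. Counted from the annotated start base as 0, the core began at −2 in CARS, −4 in MARS, −13 in IARS, −33 in GARS (counted from the second of its listed starts), 2 in TARS and 14 in NARS, that is within 33 bases of the start. In AARS and YARS2 it lay farther off, at −187 and −197. The 100 bases before the start of IARS are given as an example of the setting of a core close to the start, again with the core in capitals.
IARS, chr9:92293698-92293797, minus strand: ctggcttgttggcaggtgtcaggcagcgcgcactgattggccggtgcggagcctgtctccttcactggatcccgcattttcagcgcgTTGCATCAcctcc

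EPRS, SARS, WARS and MARS2 were called without a match, and YARS has no entry in the table. No match says only that these letters are not in this window. The core of the antioxidant response element, TGACNNNGC, to which NRF2 is known to bind, was found in GARS, KARS, TARS and WARS among the cytosolic genes and in NARS2 and RARS2 among the mitochondrial ones, 6 of 30 in all. It was held by 16.1% of all genes and by 17.9% of protein-coding genes. In none of the members did matches of both cores overlap. These matches are descriptions and not bound sites.

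In NRF2-edited cells the same direction was measured with H2O2. There 9.81% of all genes were called and 4.26% were called as risen, against 11 of 20 cytosolic genes and 1 of 16 mitochondrial ones, again all risen. The 10 cytosolic genes called in control cells were all among the 11, and CARS was the other. By position of the samples 17 cytosolic genes lay wholly above the untreated libraries and 1 wholly below, and of the mitochondrial genes 8 lay above and none below, against 18.3% and 15.7% of all genes. The median log2 fold change was 0.92 over the cytosolic genes, 0.22 over the mitochondrial genes and −0.0086 over all genes tested. GARS went from 142, 174 and 180 CPM to 588, 866 and 733 CPM (log2 fold change 2.12 ± 0.18, edgeR adjusted p = 0.00118). WARS went from 77.5, 103 and 102 CPM to 276, 378 and 363 CPM (1.83 ± 0.18, edgeR adjusted p = 0.00168). In both genes the lowest H2O2 library, replicate 1, was above the highest untreated one by more than 2 times.

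SARS was at 159, 174 and 188 CPM untreated and at 471, 688 and 649 CPM with H2O2 in NRF2-edited cells (log2 fold change 1.77 ± 0.18, edgeR adjusted p = 0.00168). YARS (1.61 ± 0.19), MARS (1.61 ± 0.16) and AARS (1.34 ± 0.15) came next, and the other called cytosolic genes had log2 fold changes from 0.92 to 1.20. CARS, the cysteine enzyme, is of interest beside NACET, which supplies cysteine. It was at 161, 157 and 154 CPM untreated and at 256, 335 and 318 CPM with H2O2 (0.92 ± 0.14, edgeR adjusted p = 0.00761). DARS was again below 0 with groups that did not overlap (−0.48 ± 0.13), but its edgeR adjusted p of 0.0523 missed the threshold. MARS2 went from 9.56, 12.3 and 9.82 CPM to 18.9, 23.0 and 18.8 CPM (0.91 ± 0.17, edgeR adjusted p = 0.0152), and it was no longer called without untreated replicate 3 or without H2O2 replicate 2.

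**Figure D3:**
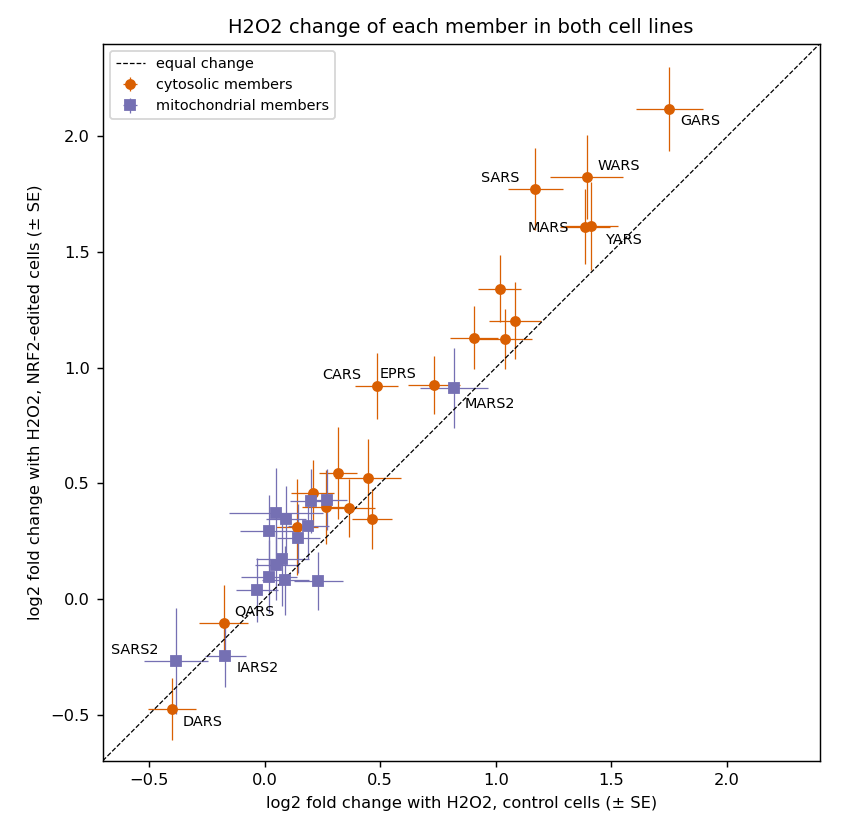
Log2 fold change with H2O2 in control cells (x axis) against that in NRF2-edited cells (y axis), each with its SE, for the 20 cytosolic (circles) and 16 mitochondrial genes (squares). The dashed line marks equal change; GARS (1.75 and 2.12), SARS (1.17 and 1.77) and CARS (0.48 and 0.92) lie above it.

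Most points in that plot lie above the line of equal change, and the difference was tested gene by gene as an interaction of H2O2 with cell line over 12 samples. By the edgeR test without pairing 0.0214% of all genes and none of the 36 passed an adjusted p of 0.05, while 2 members and 5.76% of all genes had an unadjusted p below 0.05. DESeq2 also called none. The largest difference was in SARS, whose log2 fold change was greater by 0.62 ± 0.22 in NRF2-edited cells (edgeR adjusted p = 0.658). Same-numbered samples of a cell line tended to lie on the same side of their group means. When replicate numbers were nested as a block in each cell line, in a fit added after the data had been seen, 6.91% of all genes and 4 cytosolic genes passed. These were SARS (0.61 ± 0.11, edgeR adjusted p = 0.00303), WARS (0.45 ± 0.09, 0.00743), CARS (0.45 ± 0.12, 0.0282) and GARS (0.38 ± 0.10, 0.0350), all with a greater rise in NRF2-edited cells. The edited line is 1 clone, so the edit and other features of the clone cannot be told apart.

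With NACET fewer members were called than with H2O2. In control cells 2.75% of all genes were called and 1.39% were called as risen, and 1 of 20 cytosolic and none of 16 mitochondrial members were called. The member called was GARS, at 117, 156 and 143 CPM untreated and at 199, 244 and 232 CPM with NACET (log2 fold change 0.71 ± 0.13, edgeR adjusted p = 0.0316). Its groups did not overlap, yet GARS failed the thresholds whichever 1 of the 6 libraries was dropped (log2 fold change 0.60 to 0.80). YARS, TARS and MARS had log2 fold changes of 0.60, 0.55 and 0.49 and edgeR adjusted p-values of 0.0427, 0.0446 and 0.0460, and lay just under the fold limit, and MARS2 was at 0.67 ± 0.16 (0.0638). The median was 0.23 over the cytosolic genes and −0.03 over the mitochondrial genes. At an unadjusted p below 0.05 there were 10 cytosolic and 4 mitochondrial genes, and 20.8% of all genes.

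In NRF2-edited cells NACET changed 1.39% of all genes and no member by the same test, although 9 cytosolic and 4 mitochondrial genes had an unadjusted p below 0.05, as did 18.6% of all genes. GARS missed the threshold narrowly, at 142, 174 and 180 CPM untreated and at 248, 362 and 294 CPM with NACET (log2 fold change 0.85 ± 0.16, edgeR adjusted p = 0.0507). YARS was at 0.71 ± 0.18 (edgeR adjusted p = 0.0981) and MARS2 at 0.65 ± 0.14 (0.0693). The median was 0.23 over the cytosolic genes and −0.05 over the mitochondrial genes. Blocking on replicate number brought 8.82% of all genes and 5 members past the thresholds in NRF2-edited cells, GARS, MARS, WARS, YARS and MARS2, with log2 fold changes from 0.61 to 0.84. In control cells the block gave 7.49% of all genes and GARS and MARS2 among the members. DESeq2 called 4 cytosolic genes and MARS2 in NRF2-edited cells, and GARS, YARS and MARS2 in control cells. What share of all genes DESeq2 called is not given here, so these counts cannot be set against a background.

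The interaction of NACET with cell line passed in 0.0643% of all genes and in none of the 36. No member had an unadjusted p below 0.05, against 1.63% of all genes, and DESeq2 called none. The largest difference was in WARS, greater by 0.28 ± 0.26 on the log2 scale in NRF2-edited cells. With the nested replicate block 0.9% of all genes and no member passed. In that fit 2 members, WARS and AARS, had an unadjusted p below 0.05, and WARS had an edgeR adjusted p of 0.189.

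CARS was the cytosolic gene with the lowest log2 fold change under NACET, not the lowest level, and it is named because of that change. In control cells it was at 149, 160 and 151 CPM untreated, at 196, 235 and 212 CPM with H2O2 and at 115, 129 and 127 CPM with NACET. The 3 groups did not overlap, and the order was the same in NRF2-edited cells, where NACET gave 128, 149 and 123 CPM. Against untreated cells the log2 difference was −0.30 ± 0.09 in control cells (edgeR adjusted p = 0.1095) and −0.26 ± 0.11 in NRF2-edited cells (edgeR adjusted p = 0.254), and neither passed. Among the mitochondrial genes TARS2 (−0.33 and −0.41) and SARS2 (−0.36 and −0.47) had the lowest log2 fold changes under NACET in both lines, also without passing.

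Set directly against H2O2, NACET gave lower levels. In control cells 3.67% of all genes were called and 1.43% were lower with NACET, against 9 of 20 cytosolic members lower and none higher. The widest gaps were in WARS, at 203, 284 and 232 CPM with H2O2 and at 98.3, 138 and 107 CPM with NACET, and in GARS. The log2 differences were −1.04 ± 0.16 (edgeR adjusted p = 0.0138) and −1.03 ± 0.14 (0.00714). SARS (−0.98), MARS (−0.89), YARS (−0.81), CARS (−0.77), AARS (−0.67), NARS (−0.65) and IARS (−0.61) were the others, and IARS was lost in each fit without 1 sample. Without H2O2 replicate 2 the count fell from 9 to 3, with CARS, GARS and MARS still called.

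In NRF2-edited cells 8.31% of all genes were called and 3.22% were lower with NACET, against 11 cytosolic members lower and none higher. SARS led, at 471, 688 and 649 CPM with H2O2 and at 192, 263 and 229 CPM with NACET (log2 difference −1.38 ± 0.19, edgeR adjusted p = 0.00707). GARS (−1.25), WARS (−1.19), CARS (−1.16), MARS (−0.98) and YARS (−0.88) followed. Leaving out H2O2 replicate 2 or NACET replicate 3 left 5 called, and leaving out NACET replicate 2 left 7. None of the 16 mitochondrial genes was called in either line. At an unadjusted p below 0.05 there were 4 in control cells and 6 in NRF2-edited cells, against 23.4% and 26.7% of all genes, and DESeq2 also called none. Comparisons with H2O2 and with untreated cells share the NACET libraries and are not independent of each other.

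The summed levels of each compartment are given without a test. In control cells the 20 cytosolic genes summed to 3194 ± 246 CPM untreated, 3728 ± 228 with NACET and 5426 ± 410 with H2O2. In NRF2-edited cells the sums were 3335 ± 276, 4109 ± 447 and 6823 ± 659 CPM. The 16 mitochondrial genes summed to between 688 ± 35.3 and 769 ± 31.0 CPM over all 6 groups. In NRF2-edited cells their sum was higher with H2O2 in each same-numbered pair, by 1.07 to 1.13 times, and in control cells the pairs gave 0.991 to 1.07 times. The cytosolic sum was thus 4.44 ± 0.141 times the mitochondrial one in untreated control cells, 5.30 ± 0.192 times with NACET and 7.35 ± 0.441 times with H2O2. In NRF2-edited cells the ratio was 4.75 ± 0.199, 5.97 ± 0.613 and 8.88 ± 0.926. The ratio within a library does not depend on the scaling between libraries. It was higher in the treated sample of every same-numbered pair, by 1.61 to 1.70 times with H2O2 in control cells and by 1.78 to 2.02 times in NRF2-edited cells. With NACET it was higher by 1.18 to 1.20 times and by 1.18 to 1.36 times.

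**Figure D4:**
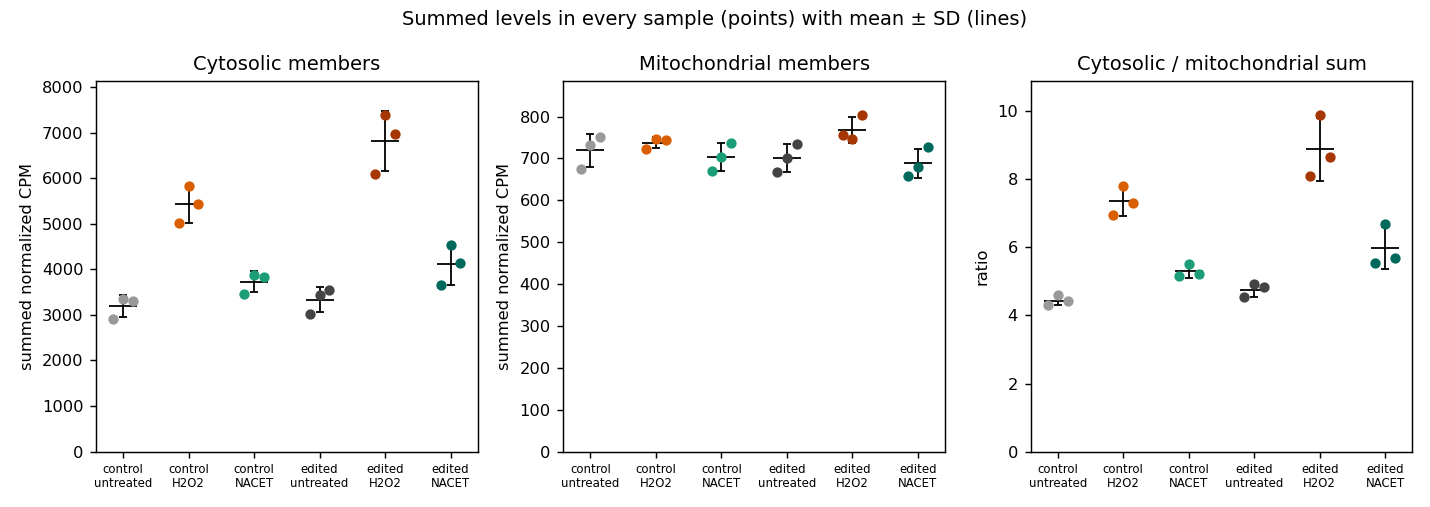
Summed normalized CPM of the 20 cytosolic genes (left), of the 16 mitochondrial genes (middle) and their ratio (right), each axis from 0, in every sample (points) with the mean ± SD of each group of 3 (lines). The cytosolic sum and the ratio are highest in both H2O2 groups, while group means of the mitochondrial sum lie between 688 and 769 CPM.

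Genes of the multisynthetase complex were called in a smaller share than the other cytosolic genes. Of the 8 genes of the complex (EPRS, IARS, LARS, MARS, QARS, RARS, KARS, DARS) 3 were called with H2O2 in each line, EPRS, IARS and MARS. Of the 12 cytosolic genes outside it 7 were called in control cells and 8 in NRF2-edited cells. Over all genes tested 6.33% were called with H2O2 in control cells and 9.81% in NRF2-edited cells. The medians were 0.42 and 0.40 inside the complex and 0.96 and 1.17 outside it, and the difference between the sets was not tested. Genes of class I and class II, the unrelated folds of the catalytic domain, were called alike in control cells, 5 of 10 and 6 of 11, with EPRS counted in both. The scaffold genes of the complex rose in part. AIMP2 was called in control cells (log2 fold change 0.67) and in NRF2-edited cells (0.79), EEF1E1 in control cells (0.68), and AIMP1 in neither (0.43 and 0.55).

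Among the related gene lists 3 held no called gene. None of 11 mitochondrial translation factors, of 4 tested genes of mitochondrial Gln-tRNA formation and Met-tRNA formylation, or of 6 eIF2 kinases and GCN2 activators was called with H2O2 or NACET in either line. With 9.81% or less of all genes called, counts of 0 in lists this short are near the background. Of 18 tRNA maturation genes 3 rose with H2O2 in control cells and 4 in NRF2-edited cells, against 2.96% and 4.26% of all genes. XPOT, which exports tRNA from the nucleus, was the largest of them with log2 fold changes of 1.42 and 1.47, and it also rose with NACET (0.69 and 0.75), as did the pseudouridine synthase gene PUS7 (0.69 and 0.66). TRNT1, which adds the CCA end to tRNA, and MTO1, which modifies mitochondrial tRNA, rose with H2O2 in both lines (0.67 and 0.62 in control cells), and RPP40, a subunit of RNase P, in NRF2-edited cells (0.95). Of 18 tested genes of cytosolic elongation and initiation 3 rose with H2O2 in control cells (EIF2S2, EIF1 and EIF4EBP1, log2 fold changes 0.71 to 0.80). In NRF2-edited cells 5 rose, led by EIF1 (1.30), EIF4EBP1 (1.24) and EIF2S2 (1.06). These counts too stand against 2.96% and 4.26% of all genes. EIF4EBP1 encodes a repressor of initiation and not an initiation factor, and it is also in the list of amino acid response genes below. The initiation factor gene EIF5 rose with NACET in NRF2-edited cells (0.72).

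Genes of the amino acid response outside the synthetases, that is ATF4 and its known targets, were listed as well. With H2O2 18 of 25 tested genes were called as risen in control cells and 21 of 26 in NRF2-edited cells, with median log2 fold changes of 0.98 and 1.44, while 2.96% and 4.26% of all genes were called as risen. The difference from the synthetases was not tested. ATF4 was at 185, 187 and 233 CPM untreated and at 392, 450 and 468 CPM with H2O2 in control cells (log2 fold change 1.12 ± 0.12, edgeR adjusted p = 0.00259), and its change was 1.67 ± 0.21 in NRF2-edited cells. ASNS, asparagine synthetase, rose by log2 fold changes of 3.04 and 3.42. The widest changes were in CHAC1, a glutathione-degrading enzyme (3.69 and 4.99), ASNS, and PSAT1 of serine synthesis (2.77) in control cells or TRIB3, a pseudokinase (3.81), in NRF2-edited cells. With NACET 5 of 25 rose in control cells, against 1.39% of all genes. SLC7A11, the cystine transporter, at 2.67, MTHFD2 at 0.94 and TRIB3 at 0.68 were the largest, and ATF4 was at 0.65. In NRF2-edited cells ASNS rose with NACET (1.38) and STC2 fell by 0.73 on the log2 scale. SLC7A11 was not among the genes of the list called there. The study counts SLC7A11 among the target genes of NRF2, so its rise in control cells is not particular to the amino acid response.

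Across all 18 libraries, with log2 CPM centred within each cell line, the genes outside the members whose levels followed the mean of the 20 cytosolic genes most closely were HSPA9 (r = 0.990), MTHFD2 (0.990), SCO1 (0.989), PCK2 (0.987) and TOR1A (0.985), out of 14117 genes compared. HSPA9 is the mitochondrial HSP70 chaperone, MTHFD2 a mitochondrial folate enzyme, SCO1 a copper chaperone of cytochrome oxidase, PCK2 the mitochondrial PEP carboxykinase and TOR1A an ATPase of the endoplasmic reticulum. ASNS came 7th (0.984) and ATF4 44th (0.961). Of the members themselves WARS and GARS were closest to the mean (both 0.990), QARS hardly followed it (−0.05), and DARS (−0.78) and IARS2 (−0.72) ran against it. That mean contains each cytosolic member itself. These values describe 18 libraries that share the same 6 groups and replicate numbers, and they carry no p-value.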

How the data were processed

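PolyA RNA of 18 ARPE-19 samples was sequenced, 3 in each of 6 groups taken from the sample titles. According to the labels and the study's methods, the authors aligned TruSeq reads to hg19 (TopHat2 2.1.0 with Bowtie), obtained unstranded gene counts from HTSeq 0.11.2 and took out ribosomal RNA genes. The gene annotation is not given in the sources used here. They deposited raw counts for 23411 gene symbols (4060 of them at 0 throughout) with 5 summary lines. Here the summary lines (reads on no feature 15.0 to 17.5%, ambiguous 0.955 to 1.18%, not unique 8.24 to 10.4%) entered neither library sizes nor tests. Reads on genes were 16673306 to 25951154 per library, and no pair of replicates agreed within counting noise (chi-square per degree of freedom 9.98 to 66.8), so the spread between replicates limits the precision.

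The members, gene lists and tests were chosen with earlier results of these data known. Each pair of groups was fitted with edgeR 4.0.16 (filterByExpr, TMM, glmQLFit, glmQLFTest) in R 4.3.3 on its 6 samples, with Benjamini-Hochberg adjustment over all genes tested, and interactions were fitted on 12 samples. A call needed an adjusted p below 0.05 and a log2 fold change of 0.6 or more, up or down, or in an interaction the adjusted p alone. The study used DESeq2, which with default parameters (DESeq2 1.42.0) was an alternative here. The other alternatives were RLE size factors, no filter on low counts, a joint fit of the 18 samples, a replicate block, no fold limit, and each sample left out in turn. After the data had been seen, a replicate block nested in cell line was added to the interactions, and the canonical transcript length to levels per kb. Deviations of same-numbered samples from their group means correlated over genes at 0.387 to 0.796 within a cell line, for every pair, so the numbers were taken to pair samples there. Between the lines the correlations were −0.19 to 0.63, and the numbers were not taken to pair them. Levels are TMM-normalized CPM over all 18 samples, and CPM per kb uses the longest coding sequence in GENCODE v44lift37. Scripts were tested on simulated counts. The list of other synthetase-like genes is not reported here.

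Named were the called members of each comparison, or the 6 with the largest change where over 10 were called, or the member with the largest change where none was, plus the highest and lowest per kb of each class, GARS, KARS and QARS. In other lists the called genes were named where at most 4 were called, and otherwise the 3 with the largest change, with ATF4, ASNS, AIMP1, AIMP2, EEF1E1, NFE2L2 and NQO1.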

Additional observations from a re-analysis of the deposited data

How the results depend on the processing

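The H2O2 counts of cytosolic genes stayed at 10 in control cells and between 11 and 13 in NRF2-edited cells when 1 sample was left out, and no member changed sign while called under any alternative. MARS2, the 1 mitochondrial gene called with H2O2, was lost in 1 such fit in control cells and in 2 in NRF2-edited cells, so that count ran from 0 to 1. With NACET against untreated control cells 1 cytosolic gene was called, 2 with DESeq2 or with RLE size factors, 4 with no fold limit, and 0 in every fit that left out 1 sample. For the mitochondrial genes 0 became 1 with DESeq2, in 1 fit of all 18 samples and with the replicate block, and ranged from 0 to 1 with 1 sample left out. In NRF2-edited cells 0 cytosolic genes became 4 with DESeq2, in 1 fit of all 18 samples and with the replicate block, 1 with no filter on low counts, and 0 to 3 with 1 sample left out, and 0 mitochondrial genes became 1 in the first 3 of these settings. Set against H2O2, the count of 9 in control cells ran from 3 to 8 and that of 11 in NRF2-edited cells from 5 to 12 with 1 sample left out, and the mitochondrial count in NRF2-edited cells was 0 to 1, or 2 with no fold limit. In the H2O2 interaction the replicate block shared by the lines called 1 cytosolic gene (SARS) and the block within each cell line 4. The replicate block changed no other count of called members. The share of all genes called also moved with the setting. For NACET the replicate block took it from 2.75% to 7.49% in control cells and from 1.39% to 8.82% in NRF2-edited cells. For the other alternatives that share is not given here, so a shift in their counts cannot be read as particular to the members. The mitochondrial sum in control cells with H2O2 was 754 CPM with library totals instead of TMM. The log2 change of the ratio of sums with H2O2 was 0.73 in control cells and 0.90 in NRF2-edited cells, and 0.60 and 0.69 when the mean log2 CPM of the members replaced the sum, which gives every gene the same weight. The cause of the other shifts was not tested. The block leaves few residual degrees of freedom. With 3 samples a group, a change near the fold limit can fall on either side of it.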
